A study of Mus musculus with 2 samples.

Results

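The cells described here are the fetal lung cells of late gestation (E18.5) in which transcripts of both alveolar epithelial cell types were found in the same barcode, called dual-programme cells here. They were chosen by their own counts. A cell was a member when Sftpc, the surfactant protein C gene of type 2 (AT2) cells, made up at least 4% of its unique molecular identifiers (UMIs, counted transcripts), when the 7 type 1 (AT1) genes Hopx, Ager, Aqp5, Rtkn2, Clic5, Akap5 and Pdpn together made up at least 0.5%, and when no UMI of the leukocyte gene Ptprc was seen. At E18.5, 1894 of 12027 cells met the rule, or 15.7% (exact binomial interval 15.1 to 16.4%), out of 26113 cells kept in the whole series. They were set against 3410 AT1 cells (AT1 genes at least 1.2%, Sftpc under 2%) and 2586 AT2 cells (Sftpc at least 8%, AT1 genes under 0.5%) of the same library. The levels of these 8 genes are therefore a description of the choice and not a finding.

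The cells came from mice carrying a tamoxifen-inducible recombinase driven by Cdh16, the gene of kidney-specific cadherin, and a floxed red reporter. The labels give the genotype as Cdh16CreERT2;tdTomatoflox/flox, while the series design gives Cdh16CreERT2/wt;R26-tdTomatoflox/wt. Pregnant females received tamoxifen from embryonic day 12.5, injected at 0.1 mg per kg or fed at 0.4 g per kg of food, and red cells within the population stained for CD326, the product of Epcam, were sorted. The 2 libraries, E18.5 and postnatal day 10 (P10, labelled with the same embryonic tissue), share this genotype and schedule, and neither the tamoxifen route used for each nor the number of animals pooled is given in the sources used here. With 1 library per time point there is no replicate and no test, and all intervals are 95% intervals for counting error only.

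AT1 cells are the flat cells across which gas is exchanged, and AT2 cells are the cuboidal cells that make surfactant and can give rise to AT1 cells after injury. Both arise before birth from progenitors at the distal tips of the airways, and cells that carry genes of both types in late gestation have been described as intermediates. A droplet that captures a pair of cells also gives 1 barcode with both sets of transcripts. The transcription factor NKX2-1 is active in both cell types and is needed for the genes of each.

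The promoters of 4 genes are shown because these genes stand for the programmes that were found side by side: Ager and Hopx for AT1 cells, Sftpa1 and Sftpb for AT2 cells. Each line gives 250 bases before to 50 bases after a transcription start from RefSeq (GRCm38.p6, the assembly known as mm10), 5′ to 3′ on the strand of the gene, with both starts listed for Hopx. Capitals mark the NKX2-1 core motif CTCAAG or, where it lies on the other strand, its reverse complement CTTGAG.
Ager, plus strand, chr17:34597600-34597899: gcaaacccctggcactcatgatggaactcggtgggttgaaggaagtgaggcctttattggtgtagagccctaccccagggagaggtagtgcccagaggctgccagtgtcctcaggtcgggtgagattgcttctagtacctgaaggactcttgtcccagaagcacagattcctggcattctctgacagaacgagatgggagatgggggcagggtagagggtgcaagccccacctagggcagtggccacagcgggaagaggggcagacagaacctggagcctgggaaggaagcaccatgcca
Hopx upstream start, minus strand, chr5:77115074-77115373: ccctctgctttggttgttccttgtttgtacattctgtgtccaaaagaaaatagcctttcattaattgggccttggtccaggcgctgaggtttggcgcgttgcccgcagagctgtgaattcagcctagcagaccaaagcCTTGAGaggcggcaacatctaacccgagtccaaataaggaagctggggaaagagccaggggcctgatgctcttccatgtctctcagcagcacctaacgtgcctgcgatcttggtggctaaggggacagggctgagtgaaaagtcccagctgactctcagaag
Hopx downstream start, minus strand, chr5:77095218-77095517: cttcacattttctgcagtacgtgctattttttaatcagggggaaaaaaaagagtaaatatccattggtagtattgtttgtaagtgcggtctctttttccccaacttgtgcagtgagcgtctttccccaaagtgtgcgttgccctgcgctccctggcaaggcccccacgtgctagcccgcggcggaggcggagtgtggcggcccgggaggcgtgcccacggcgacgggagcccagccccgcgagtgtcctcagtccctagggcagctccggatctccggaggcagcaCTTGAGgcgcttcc
Sftpa1, plus strand, chr14:41131538-41131837: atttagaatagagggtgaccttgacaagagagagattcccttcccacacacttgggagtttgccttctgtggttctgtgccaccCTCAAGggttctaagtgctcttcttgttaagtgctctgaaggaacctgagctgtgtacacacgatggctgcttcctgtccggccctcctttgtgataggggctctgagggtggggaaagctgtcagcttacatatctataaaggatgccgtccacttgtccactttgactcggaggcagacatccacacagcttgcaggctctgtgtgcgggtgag
Sftpb, plus strand, chr6:72304360-72304659: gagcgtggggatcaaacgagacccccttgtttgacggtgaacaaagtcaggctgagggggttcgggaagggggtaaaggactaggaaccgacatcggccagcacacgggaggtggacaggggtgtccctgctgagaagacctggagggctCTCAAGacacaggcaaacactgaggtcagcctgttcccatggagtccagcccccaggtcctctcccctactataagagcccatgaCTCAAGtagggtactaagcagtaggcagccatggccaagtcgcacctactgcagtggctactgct
The motif was found once at each Hopx start, once in the Sftpa1 window and at 2 places in the Sftpb window, and it was not found in the Ager window. Of all 32851 promoters of this length in the table, 15.9% hold it. Of the 12 genes looked up, Sftpc and Rtkn2 had no entry. Aqp5, Clic5, Akap5, Pdpn, Lamp3 and Abca3 had an entry but, like Ager, no motif, and their windows are not shown.

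The label was checked with AT1 and AT2 genes that the rule did not use. Summed over Cav1, Vegfa, Col4a3, Lmo7 and Gprc5a, the dual-programme cells had a median of 56 UMIs per cell (quartiles 38 and 84), against 33 in AT1 cells and 10 in AT2 cells. Summed over Sftpa1, Sftpb, Sftpd, Lamp3 and Slc34a2, they had a median of 156 UMIs (110 and 219), against 5 in AT1 cells and 149 in AT2 cells. At least 1 UMI of each group was seen in all 1894 cells, but this measure separates the classes little, since 97.3% of AT1 cells had a UMI of the AT2 group and 99.4% of AT2 cells one of the AT1 group. The medians of the dual-programme cells were at or above those of the matching type for both groups, but these are counts per cell at unequal depth. Median depth was 16728.5 UMIs in dual-programme, 5287.5 in AT1 and 9461.5 in AT2 cells. With the counts per class set to a common total (CPM), each of these genes stood below its level in the matching type. Cav1 stood at 489 CPM against 1111 in AT1 cells, and Lamp3 at 457 against 748 in AT2 cells. As a measure of free RNA, the genes of the rule were counted in cells taken as leukocytes, which should lack them. This was done in 300 cells with at least 2 Ptprc UMIs and no Epcam UMI, at a median depth of 6762 UMIs. Sftpc had a median of 0.607% and a 90th percentile of 0.781% of UMIs, well under the 4% of the rule. Its highest share was 8.28%, above the rule. The AT1 genes had a median of 0.127% in these cells and a 90th percentile of 0.595%, which lies above the 0.5% of the rule. Their highest share was 1.27%. Epcam had a UMI in 82.9% of AT1 cells and Ptprc in 5.57%, so the set may also hold epithelial cells. Its upper values therefore cannot be read as free RNA alone.

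Among the members Sftpc ranged from 4.01 to 19.1% of UMIs with a median of 8.15%, and the AT1 genes from 0.5 to 2.35% with a median of 0.763%. In AT2 cells the median of Sftpc was 14.0%, and in AT1 cells that of the AT1 genes was 1.84%. No gap in the values marked either threshold. Just inside the AT1 threshold (0.5 to 0.6%) lay 325 cells and just outside it (0.4 to 0.5%) 254 cells, and just inside the Sftpc threshold (4 to 5%) lay 178 cells and just outside it (3 to 4%) 112 cells. A further 371 cells met both thresholds but held a Ptprc UMI, 16.4% of the 2265 cells that met them, and these were deeper still, with a median of 24957 UMIs.

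**Figure D1:**
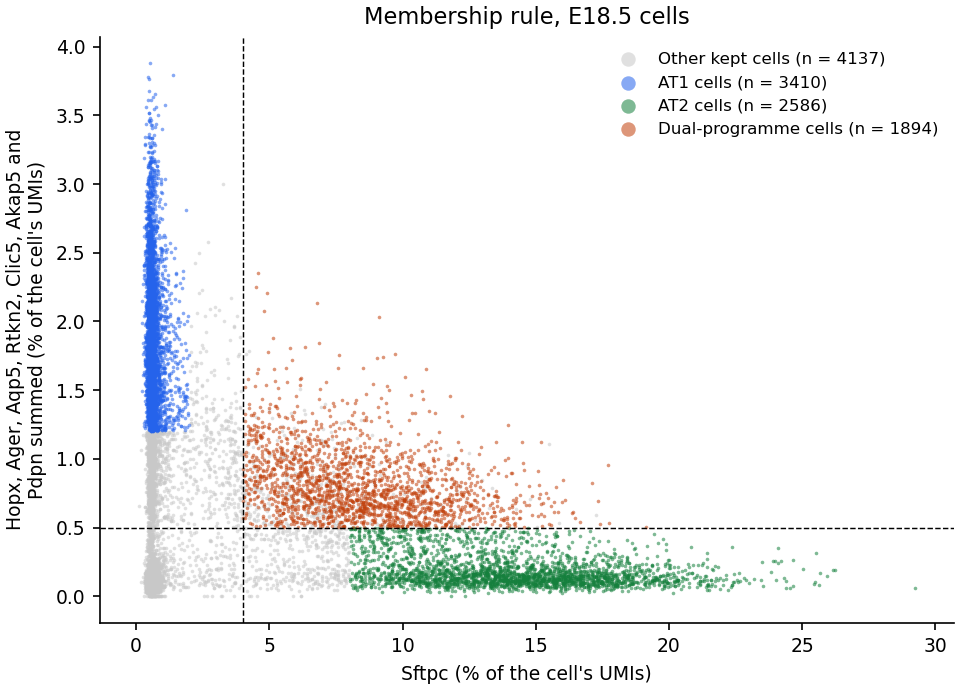
Each point is 1 of 12027 E18.5 cells, with the share of its UMIs from Sftpc on the horizontal axis and the summed share of the 7 AT1 genes on the vertical axis, both in percent, and dashed lines at the member thresholds of 4% and 0.5%. The 1894 dual-programme cells lie between the AT1 cells at the left and the AT2 cells at the bottom, and the grey points among them hold a Ptprc UMI.

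The dual-programme cells held more transcripts than cells of either type. Their median was 16728.5 UMIs (quartiles 13542.8 and 22534.8) and 4254 genes, against 5287.5 UMIs and 2198 genes in AT1 cells and 9461.5 UMIs and 2785 genes in AT2 cells. The medians of AT1 and AT2 cells add up to 14749 UMIs. The share of members moved with depth: they were 0.869% (0.573 to 1.26%) of the 3107 cells under 5000 UMIs, 2.83% (2.32 to 3.42%) of those from 5000 to 10000, 25.2% (23.4 to 27.1%) from 10000 to 15000 and 42.6% (39.8 to 45.4%) from 15000 to 20000. Above that they were 38.2% (35.5 to 41.1%) up to 30000 UMIs and 35.6% (31.8 to 39.6%) beyond. In all, 109 members, 5.76%, lay at or below the median depth of AT2 cells. Mitochondrial transcripts made up a median of 1.40% of their UMIs, beside 1.61% in AT1 and 1.43% in AT2 cells.

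To set these depths beside those of a mixture, the counts of every AT1 cell were added to those of every AT2 cell, which gave 8818260 sums. Of these, 74.4% met the member rule. Those that did had a median of 15450 UMIs (quartiles 12729 and 20258) and 4053 genes, with Sftpc at a median of 8.74% and the AT1 genes at 0.834%. At equal depth the gene numbers were close: from 10000 to 15000 UMIs the median was 3621 genes in dual-programme cells and 3641 in the sums, from 15000 to 20000 it was 4282.5 and 4281, and from 20000 to 30000 it was 5072.5 and 5112. AT2 cells had 3164, 4184 and 4970 genes in the same ranges and AT1 cells 3682, 4504 and 5300.5. The part of droplets with more than 1 cell in the results below was not tested. These values and the Xist counts given at the end are descriptions.

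**Figure D2:**
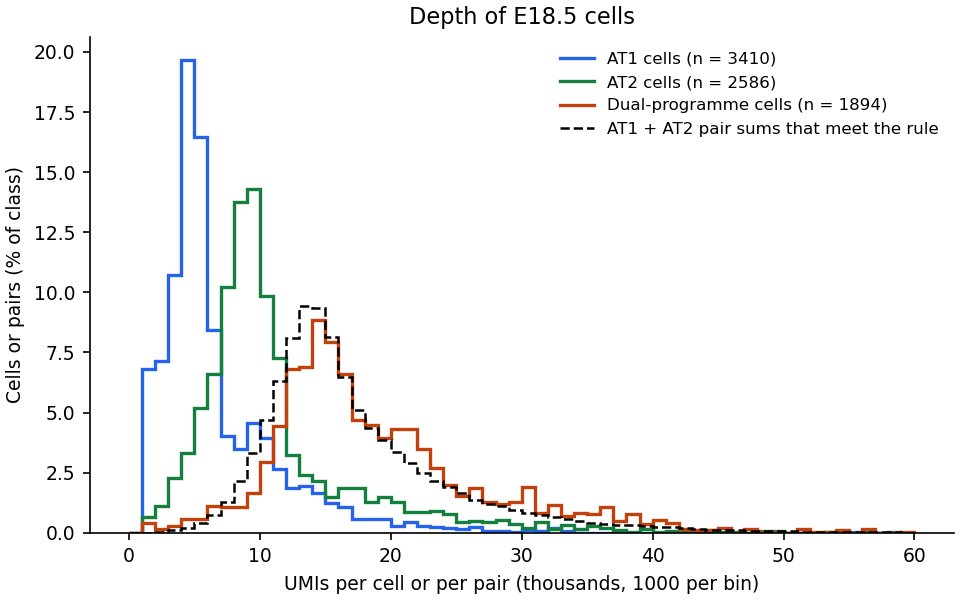
Distribution of UMIs per cell in bins of 1000 for AT1 cells, AT2 cells and dual-programme cells, as a percentage of each class, with the pair sums that meet the rule as a dashed line (the deepest cells lie beyond the axis). The dual-programme cells (median 16728.5) follow the pair sums (median 15450) and lie above both AT1 (5287.5) and AT2 cells (9461.5).

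The mean number of UMIs per cell is given first for genes of the rule, as a description of the cells chosen, and then for genes outside it. Sftpc (mm10, chromosome 14, 70520949 to 70524081, minus strand) had a mean of 1568 UMIs per dual-programme cell, 1538 per AT2 cell and 43.8 per AT1 cell. Ager (chromosome 17, 34597862 to 34600936, plus strand), the receptor for advanced glycation end products, had 66.8 UMIs per dual-programme cell, 54.6 per AT1 cell and 11.5 per AT2 cell. Hopx (chromosome 5, 77086988 to 77115121, minus strand), a homeodomain-only protein of AT1 cells, had 44.8, 34.2 and 6.44. The mean of the dual-programme cells was 0.991 times the sum of the AT1 and AT2 means for Sftpc, 1.01 for Ager, 1.10 for Hopx, 1.14 for Aqp5, 0.996 for Clic5, 1.01 for Pdpn and 0.856 for Akap5. Rtkn2 (chromosome 10, 67979570 to 68059740, plus strand) was the lowest of the genes of the rule: it had 5.46 UMIs per dual-programme cell, fewer than the 6.89 per AT1 cell, and 0.705 times the sum. Over all genes the mean was 19061 UMIs, 1.06 times the sum of the AT1 mean of 6806 and the AT2 mean of 11250. Outside the rule, Lamp3, a lamellar body protein, had 8.71 UMIs per dual-programme cell and 8.41 per AT2 cell, and Dlk1, an imprinted Notch ligand of fetal AT2 cells, had 39.6 and 38.1. Cav1, the caveolin of AT1 cells, had 9.32 per dual-programme cell and 7.56 per AT1 cell. Against the sum of both types these were 1.00 times for Lamp3, 1.01 for Dlk1 and 1.05 for Cav1.

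A weighted sum of the AT1 and AT2 profiles was fitted to ask how far the 2 types alone describe the pooled profile. UMIs were summed over the cells of each class, 36102189 in dual-programme, 23207198 in AT1 and 29091137 in AT2 cells, and given as CPM, the counts per class set to a common total. The weight that best described the dual-programme profile, fitted without the 8 genes of the rule, was 0.393 for AT1 and thus 60.7% for AT2, with a counting interval of 0.392 to 0.393. The share of AT1 in the summed median depths of AT1 and AT2 cells was 0.358. Of the 5745 genes that averaged 20 CPM or more across the 3 profiles, 83.4% lay within 1.1-fold of the weighted sum and 98.4% within 1.25-fold, and 20 genes lay beyond 1.5-fold. Across these genes the log2 levels of dual-programme cells had a Pearson r of 0.997 with the weighted sum, 0.962 with AT2 and 0.905 with AT1 cells, as a description over genes, which are not independent and share the library.

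No gene stood above both types by more than a small margin. In dual-programme cells 4904 genes, 85.4%, lay between their AT1 and AT2 levels, 436 (7.59%) above both and 405 (7.05%) below both by any amount. None of the 5745 (0%) exceeded the higher type by more than 1.5-fold, and 3 (0.0522%) lay more than 1.5-fold below the lower type: the haemoglobin gene Hba-a2, the chemokine gene Ccl6 and the transcript AY036118, the last named after its value was seen. Phlda1, a pleckstrin-homology protein induced by growth factors, showed the largest ratio, with 556 CPM in dual-programme, 335 in AT1 and 444 in AT2 cells, 1.25 times the higher level. Cbr3, a carbonyl reductase, stood at 42.5 CPM against 7.15 and 34.9, and was 1.77 times its weighted sum, the largest such ratio, which matched depth lowered to 1.07. The other named genes above both were 1.16 to 1.22 times the higher level, among them Edn1, the endothelin 1 gene, at 43.0 CPM against 36.5 and 31.8, and Nrg1, a ligand of ERBB receptors, at 98.2 against 72.4 and 83.9. From 10000 to 20000 UMIs Edn1 stood between both types, at 38.5 against 44.9 and 28.2, and Nrg1 above both, at 92.7 against 68.2 and 87.5. From 5000 to 15000 UMIs both lay between, Edn1 at 35.5 against 37.0 and 28.6 and Nrg1 at 76.7 against 70.7 and 77.7.

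**Figure D3:**
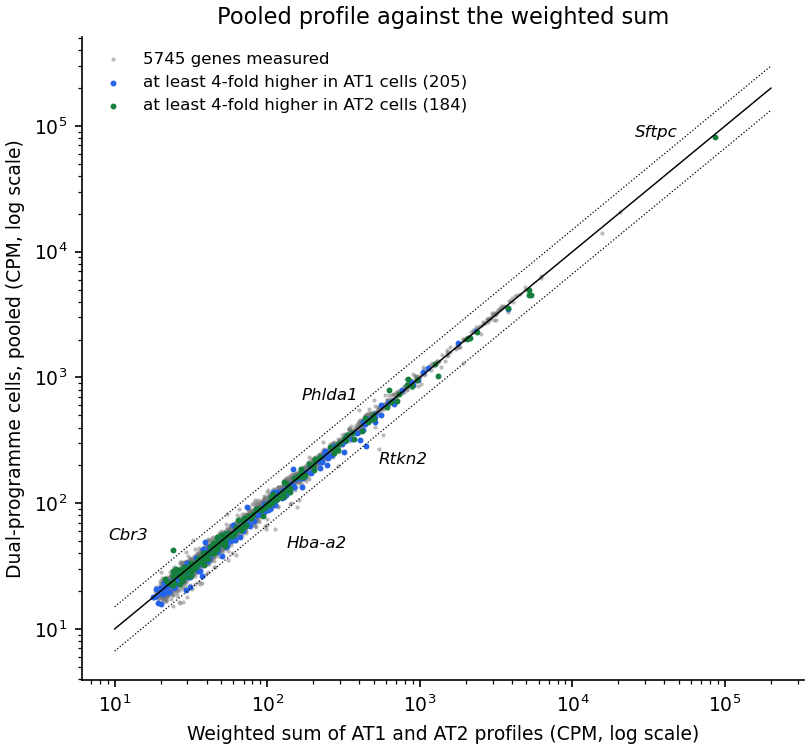
Pooled level of 5745 genes in dual-programme cells against the weighted sum of the AT1 and AT2 profiles, both in CPM on log scales, with the line of equality and dotted lines at 1.5-fold. Genes at least 4-fold higher in AT1 cells (blue, 205) or AT2 cells (green, 184) follow the same line, and 98.4% of genes lie within 1.25-fold of it.

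The AT1 genes lay about 0.4 of the way from their AT2 to their AT1 level. Hopx stood at 2348 CPM in dual-programme cells, 5022 in AT1 and 572 in AT2 cells, a position of 0.40 on a scale from 0 (AT2) to 1 (AT1). Ager stood at 3505, 8024 and 1021 CPM, at 0.35, and Aqp5, a water channel, at 919, 1890 and 223 CPM, at 0.42. Clic5 lay at 0.35, Pdpn at 0.36 and Akap5 at 0.29. Rtkn2 was the lowest among the genes of the rule, with 287 CPM against 1013 and 76.3, at 0.22. It had the second-lowest position (rank 2) of the 205 genes at least 4-fold higher in AT1 than in AT2 cells (3.57% of genes measured). Its level was 0.645 times the weighted sum, and 0.629 to 0.726 times under the alternative settings tried, with its position between 0.22 and 0.28. Akap5, an anchoring protein for kinase A, followed at 319 CPM against 918 and 76.4, or 0.784 times the weighted sum. These positions are descriptions, since the rule used these genes.

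Outside the rule, all 21 of the AT1 genes measured, of 22 listed, lay between both types, where 85.4% of all genes did. Their median ratio to the weighted sum was 0.946, beside 0.995 over all genes. Cav1 stood at 489 CPM in dual-programme cells against 1111 in AT1 and 117 in AT2 cells, and Vegfa, the endothelial growth factor that AT1 cells give off, at 627 against 1168 and 270. Col4a3, a basement membrane collagen chain, stood at 229 against 546 and 59.4. The list ran from Sema3a, a guidance factor, at 0.818 times the weighted sum (203 CPM against 546 and 54.9), to Flrt3, a membrane protein with leucine-rich repeats, at 1.16 times (166 against 242 and 79.8). Over the 198 genes outside the rule that were at least 4-fold higher in AT1 than in AT2 cells, the median position was 0.37 (quartiles 0.34 and 0.40), and all 198 lay between both types.

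The surfactant genes stood at 0.533 (Lyz1) to 0.920 (Ctsh, a cathepsin) times their AT2 level. Sftpc itself stood at 82271 CPM, against 136709 in AT2 and 6441 in AT1 cells. Sftpa1, which encodes surfactant protein A, stood at 4983 CPM against 8277 and 445, and Sftpb, which encodes surfactant protein B, at 2053 against 3278 and 191. Muc1, a surface mucin, was among the higher, at 0.840 times its AT2 level. Lamp3 stood at 457 against 748 and 41.3, and Slc34a2, the phosphate transporter of AT2 cells, at 733 against 1156 and 61.5. All 18 genes measured of the 19 listed for surfactant and lamellar bodies lay between both types, with a median of 0.992 times the weighted sum. Over the 183 genes outside the rule that were at least 4-fold higher in AT2 than in AT1 cells (184, or 3.2% of genes measured, with Sftpc), the median position was 0.41 (quartiles 0.37 and 0.44), and 182 lay between both types, the exception being Cbr3. The lowest ratio in the surfactant list was 0.847 for Lyz1, a lysozyme gene nearly identical to Lyz2 (0.873), so that counts may be split between them. Of 15 lipid synthesis genes measured, 13 lay between and 2 above both types, and Scd1, a fatty acid desaturase, stood at 633 CPM against 1027 in AT2 and 70.2 in AT1 cells.

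**Figure D4:**
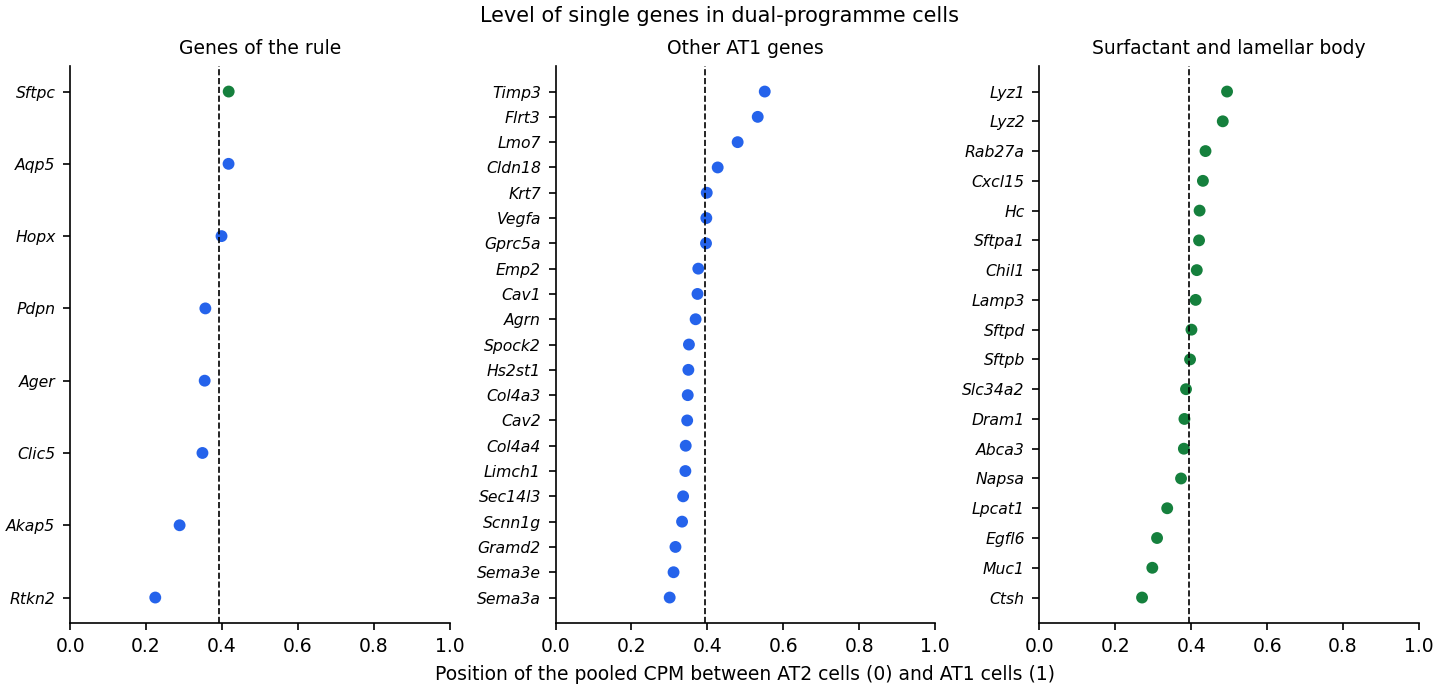
Position of the pooled CPM of single genes in dual-programme cells between their AT2 level (0) and their AT1 level (1), for the 8 genes of the rule, 21 other AT1 genes and 18 surfactant and lamellar body genes, with the fitted weight of 0.393 as a dashed line. Most genes lie near the line, and Rtkn2 lies lowest among the genes of the rule, at 0.22.

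Genes of the fetal progenitor state mostly lay between both types, as did 85.4% of all genes. Of 10 distal tip genes measured, 9 lay between and 1 above both, with a median of 1.00 times the weighted sum. Sox9, a transcription factor of tip cells, stood at 27.5 CPM against 9.78 in AT1 and 39.7 in AT2 cells, and Etv5, a target of FGF signalling, at 89.9 against 15.0 and 130. Dlk1 stood at 2075 CPM against 164 and 3383. Other measured tip genes were higher in AT1 than in AT2 cells. Shh stood at 28.7 CPM against 65.1 and 16.1, the lowest ratio of the list at 0.811 times the weighted sum. Hmga2 stood at 32.7 against 52.2 and 24.0 and Bmp4 at 38.6 against 51.4 and 25.9. Spry2 was the gene above both, at 101 against 97.7 and 84.5. Cell cycle genes were low in all classes, with 16 genes summing to 98.1 CPM in dual-programme, 81.8 in AT1 and 103 in AT2 cells, and the replication clamp gene Pcna the sole one measured. Of 20 lung transcription factors 17 lay between both types, a share near that of all genes, and Nkx2-1 stood slightly below both, at 246 CPM against 308 and 254, or 0.969 times the lower level. It lay between both types with stricter thresholds, from 5000 to 15000 UMIs and from 10000 to 20000 UMIs (257 against 297 and 248 in the last). Cebpa, a factor of AT2 cells, stood at 106 against 172 in AT2 and 20.6 in AT1 cells, and Tead1, a partner of YAP, at 156 against 307 in AT1 and 77.5 in AT2 cells.

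A few genes of several kinds exceeded the weighted sum, among them some of growth factor signalling and early response. Over all genes, 22 (0.383%) did so by more than 1.25-fold and 70 (1.22%) lay under it by as much. The 70 held genes of leukocytes, among them Plek at 0.580 times the sum, Cybb at 0.606, Tyrobp at 0.625 and Fcer1g at 0.676. Each of these was higher in AT1 than in AT2 cells. They also held haemoglobin genes and, of the rule, Rtkn2 and Akap5. With AT1 and AT2 cells free of Ptprc, 33 genes lay over the sum and 57 under it by as much. The 22 also held Cbr3 at 1.77 times the sum, Gstm1 at 1.40, Gclc at 1.27 and Txnrd1 at 1.27. They held none of the immediate early and stress list. Hbegf, a ligand of the EGF receptor, stood at 307 CPM against 348 in AT1 and 154 in AT2 cells, 1.33 times the weighted sum. Dusp6, a phosphatase that is induced by ERK signalling, stood at 89.3 against 98.4 and 44.6, 1.36 times the sum. The YAP targets Ccn1 and Ccn2, which encode matrix-associated proteins, were 1.32 and 1.27 times their sums, with Ccn1 at 662 CPM against 833 and 289. For Hbegf, Dusp6, Ccn1 and Ccn2, the excess was smaller when depth was matched. With all 3 classes limited to cells of 10000 to 20000 UMIs, a setting chosen after seeing the data, 4 genes (0.0697%) exceeded the weighted sum by more than 1.25-fold and 102 (1.78%) lay under it by as much. The ratios were 1.17 for Hbegf, 1.12 for Dusp6, 1.19 for Ccn1 and 1.16 for Ccn2. In these cells Phlda1 stood at 506 CPM against 371 and 444, still above both types. Cbr3, detected in 24.0% of the dual-programme cells, stood at 33.0 CPM against 7.80 and 45.4, between both types and no longer above them. By list, the median ratio was 1.12 over 11 FGF and EGF genes, 1.14 over 13 immediate early and stress genes, 1.10 over 14 genes of the keratin-rich transitional state and 1.06 over 7 YAP targets. It was 1.02 over 3 Notch genes, 1.02 over 12 BMP and TGF-beta genes and 0.954 over 7 Wnt genes. Over all genes it was 0.995. Over their sums lay 10 of 11 FGF and EGF genes, 11 of 13 immediate early and stress genes and 5 of 7 YAP targets. So did 12 of 14 transitional, 10 of 12 BMP and TGF-beta and 2 of 7 Wnt genes. The share of all genes over their sums is not given here. Under their sums lay, among others, Egfr at 0.925 times, Tead4 at 0.884 and Hspa1b at 0.786. From 10000 to 20000 UMIs, 10 of 11 FGF and EGF and 8 of 13 immediate early and stress genes lay over. There, 11 of 14 transitional genes, 5 of 12 BMP and TGF-beta genes and 5 of 7 YAP targets also did. At matched depth the medians were 1.12 for the FGF and EGF genes, 1.04 for the immediate early and stress genes, 1.05 for the transitional genes, 1.07 for the YAP targets and 1.10 for the Notch genes, so that the lists did not all move the same way. Within the transitional list Krt8 stood at 777 CPM against 1219 in AT1 and 461 in AT2 cells and Krt19 at 818 against 1445 and 363, both keratins between both types, while Sfn, the 14-3-3 sigma gene, stood above both, at 235 against 219 and 169. At matched depth Sfn too lay between, at 223 against 251 and 171, as it did from 5000 to 15000 UMIs. Cdkn1a and Ndrg1 of the same list also stood above both, at 411 against 339 and 363 and at 118 against 101 and 109. Cdkn1a stayed above both at matched depth, at 396 against 384 and 358. From 5000 to 15000 UMIs it did so too, at 381 against 341 and 353. Ndrg1 was not followed to matched depth. None of the list genes that averaged 20 CPM or more exceeded both types by 1.5-fold.

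Among markers of other cell types, the erythroid genes stood below both references and club cell genes between the levels of AT1 and AT2 cells in sum. The 4 haemoglobin genes lay below both types, with a median of 0.607 times the weighted sum, and their summed level was 574 CPM in dual-programme, 824 in AT1 and 1008 in AT2 cells. Per cell that was a mean of 10.9 UMIs, against 5.61 and 11.3. Ccl6 stood at 35.2 CPM against 56.2 in AT1 and 54.5 in AT2 cells, Fn1, the fibronectin gene, at 27.5 against 40.6 and 38.8, and Cd44, an adhesion receptor, at 30.9 against 51.9 and 41.5. The rule bars Ptprc in the dual-programme cells alone, and 5.57% of AT1 and 6.03% of AT2 cells held a Ptprc UMI. With AT1 and AT2 cells free of Ptprc the number of genes below both past 1.5-fold was 4 in place of 3. Summed myeloid markers stood at 33.1 CPM against 54.4 and 42.1. That sum holds Ptprc, which the rule sets to 0 in dual-programme cells, against 16.0 CPM in AT1 and 7.73 in AT2 cells. Lymphoid markers stood at 12.4 against 6.94 and 17.7, endothelial markers at 55.9 against 41.7 and 47.7 and fibroblast markers at 37.0 against 52.4 and 36.6. Club cell markers summed to 955 CPM against 730 and 1318, of which Scgb1a1, a secretoglobin gene, gave 858 and was detected in 99.4% of dual-programme cells. Neuroendocrine markers summed to 11.6 CPM against 2.93 and 9.32, smooth muscle and pericyte markers to 37.9 against 42.8 and 24.8 and mesothelial markers to 1.75 against 1.21 and 1.27. Ciliated markers lay between AT1 (16.5) and AT2 cells (31.5). Calca, the calcitonin gene in the neuroendocrine list, stood at 8.25 CPM against 1.16 and 3.44, or 2.40 times its AT2 level (1.91 to 3.04), in 2.48% of dual-programme cells and under the mean of 20 CPM. The part of these cells in the results was not tested. None of the 6 myeloid or 4 lymphoid markers reached the mean of 20 CPM.

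Single cells differed in the share of each programme. The AT1 weight, fitted to each cell without the genes of the rule, had a median of 0.386 (quartiles 0.280 and 0.503) and lay from 0.2 to 0.6 in 1501 cells, or 79.3%. In that range lay 1 of the AT1 and 159 (6.15%) of the AT2 cells. For the pair sums that met the rule, the mean weight of both cells, weighted by their UMIs, had a median of 0.393 with quartiles of 0.318 and 0.496. The weight was not refitted to the summed counts, so this spread cannot be compared directly with that of the cells. With more of the AT1 genes in the rule, the surfactant genes were lower: the 1519 cells at 0.5 to 1% had a pooled weight of 0.357, 9065 CPM over the other AT1 genes and 29637 CPM over the surfactant list, and the 369 cells at 1 to 2% had 0.547, 11107 and 23670 CPM. Both values are shares of the same total.

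The 109 members at or below the AT2 median depth were also set against both types. Their median was 6841 UMIs, and their pooled weight was 0.492, where that of all members was 0.393. Their genes were not compared with those of the other members. Past 1.5-fold, 31 genes lay above and 100 below both types in these cells, on 698748 UMIs in all, but the counting interval lay beyond the fold for 1 gene each way. Cryl1, a crystallin-related enzyme, was above both at 67.3 CPM against 14.1 and 8.52. Cxcl2, a chemokine gene, was below both at 120 CPM against 369 in AT1 and 237 in AT2 cells. Over all members Cxcl2 was below both as well, at 198 CPM. The excess of Cryl1 came from 1 cell, which held 41 of its 47 UMIs.

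Xist, expressed from the inactive X of female cells, and 4 Y-linked genes of male cells were counted together in each cell, since a pair of cells from a female and a male gives both. The labels name no animal per cell. At least 1 UMI of each was found in 419 dual-programme cells, 22.1% (20.3 to 24.1%), against 7.51% of AT1 and 11.4% of AT2 cells, which are shallower. Between 10000 and 20000 UMIs the shares were 17.9% (15.6 to 20.3%) of 1092 dual-programme cells, 17.6% (14.5 to 21.1%) of 550 AT1 cells and 14.9% (12.6 to 17.5%) of 850 AT2 cells, and 28.7% of the pair sums of that depth that met the rule. With at least 2 UMIs of each they were 1.65% (0.980 to 2.59%), 2.18% (1.13 to 3.78%) and 2.59% (1.63 to 3.89%), and 6.65% of the pair sums. The intervals of the dual-programme cells overlapped those of both types and lay below the pair sums, which join cells of the whole library whatever their animal. Each sum also adds the free RNA of 2 barcodes, which was not subtracted. The haemoglobin genes had 0.646 times the sum of the AT1 and AT2 means per cell, where all genes had 1.06 times. The share to be found with 2 cells in 1 droplet was thus not measured. Pairs of the same type among the deeper AT1 and AT2 cells were not tested for. Thinned to 8000 UMIs per cell, the shares with at least 1 UMI of each were 8.54%, 8.89% and 7.28%, with 79, 2499 and 760 shallower cells left out. At 3000 UMIs they were 1.81%, 1.98% and 1.30%, with 11, 476 and 46 left out.

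**Figure D5:**
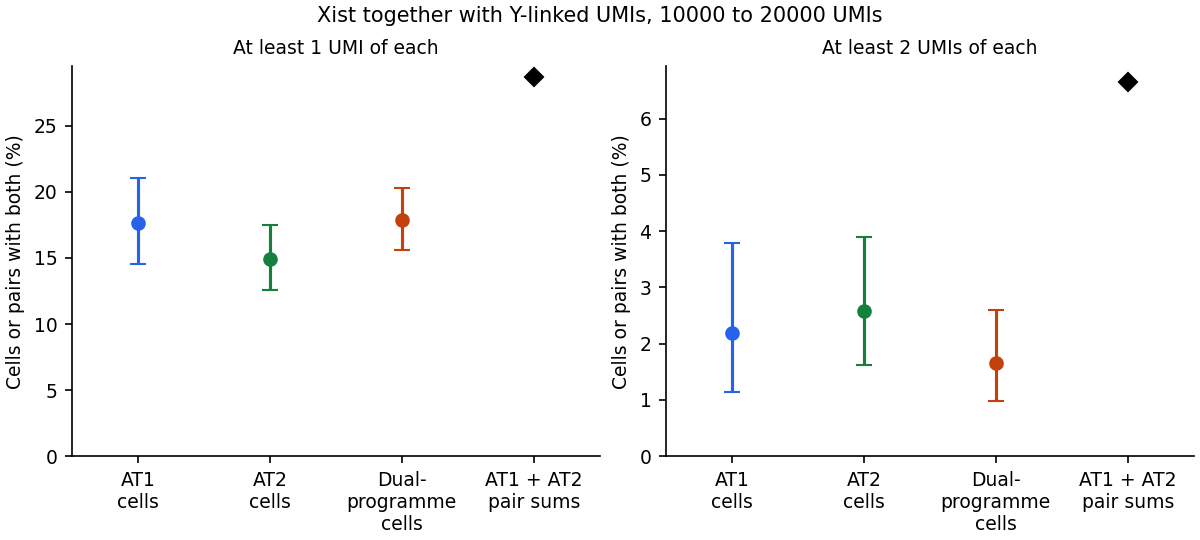
Share of cells of 10000 to 20000 UMIs that held both Xist and Y-linked UMIs, in percent, for at least 1 UMI of each (left) and at least 2 of each (right), with exact binomial 95% intervals as bars and the AT1 and AT2 pair sums as diamonds. The dual-programme cells (17.9% and 1.65%) lie with the AT1 and AT2 cells and below the pair sums (28.7% and 6.65%), which add the free RNA of 2 barcodes.

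At P10 the same rule found 26 of 14086 cells, or 0.185% (0.121 to 0.270%), beside 9 AT1 and 11379 AT2 cells. The share at E18.5 was 15.7%. The intervals hold counting error alone and not the spread between libraries, and age and library cannot be told apart with 1 library each. The AT1 cells that remain in the sort were too few to form a mixed reference. The P10 cells had a median of 19473.5 UMIs and 4894 genes, against 10715 and 3223 in P10 AT2 cells. Sftpc stood at 97965 CPM in them, Ager at 4226, Hopx at 1184 and Rtkn2 at 1057, where P10 AT2 cells had 20.1 CPM of Hopx and 5.56 of Rtkn2. Between the libraries 52 kept barcode sequences were shared, 0.432% of those at E18.5, among them 6 of the dual-programme cells, and 0 of these were members at P10.

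The genes of the sort and of the recombinase driver were counted. The lineage was not checked, since Cdh16 transcripts at E18.5 do not show labelling from embryonic day 12.5 on. Epcam had a UMI in 98.1% of dual-programme, 82.9% of AT1 and 92.8% of AT2 cells. Cdh16, whose promoter drives the recombinase, had one in 5.49%, 1.29% and 2.82%, at the unequal depths given above. The E18.5 library had 137837590 UMIs in 12739 barcodes with a median of 8959 UMIs per kept cell, and that of P10 171205348 in 14503 with 10250.5.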

How the data were processed

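The authors deposited raw UMI counts per gene and barcode, 1 matrix per library, from Cell Ranger 7.0.1 (per the file headers) on mm10 per the submitters' processing notes, which also name Seurat 4.0.0. The sources used here do not say if introns were included. A cell was kept with 500 or more genes, 1000 or more UMIs and no more than 20% mitochondrial transcripts, which left out 712 of 12739 barcodes at E18.5 and 417 of 14503 at P10. No doublet caller was applied. Members, gene lists and comparisons were chosen with earlier results of these data known.

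UMIs were summed per class and given as CPM. A gene counted as measured when it averaged 20 CPM or more across the 3 classes. The AT1 weight is a Poisson maximum-likelihood fit without the 8 genes of the rule, as a share of all UMIs, tested on simulated data. Pair sums were enumerated over every AT1 and AT2 cell. Intervals are 95% exact (Poisson or Clopper-Pearson), for counting error only, since 1 library per time point allows no test. Genes were named as rule genes, list members, or the 12 furthest above or below both types, without mitochondrial, ribosomal, haemoglobin, Xist, Y-linked and unnamed genes. Alternatives changed the cell filter, thresholds, depth, references, CPM minimum, fold, scaling and fit. Python 3.11.15, numpy 2.4.6, scipy 1.17.1, pandas 2.3.3 and matplotlib 3.10.9 were used. Promoters are from RefSeq, and gene positions from GENCODE on GRCm38.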

Additional observations from a re-analysis of the deposited data

How the results depend on the processing

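The share of dual-programme cells of 15.7% was 16.8% with at least 1000 genes, 2000 UMIs and at most 10% mitochondrial UMIs, 4.81% with Sftpc at 6% and the AT1 genes at 0.8%, and 11.4% among cells of 5000 to 15000 UMIs. The AT1 weight of 0.393 was 0.394, 0.441 and 0.382 under the same 3 settings, 0.394 with AT1 and AT2 cells free of Ptprc, 0.398 with each cell weighted equally, 0.418 from Sftpc alone, 0.362 from the AT1 genes of the rule alone, 0.386 as the median over 381 genes that differ 4-fold, and 0.492 in members at or below the AT2 median depth, a setting chosen after seeing the data. Genes above both types past 1.5-fold numbered 0 in every setting but the last, which gave 31 on few UMIs. Genes below both, 3 in the reported setting, numbered 17 with stricter thresholds, 5 from 5000 to 15000 UMIs, 5 at a mean of 5 CPM, 0 at 2-fold, 1 without the genes of the rule in the total and 100 in the shallow members. The share with Xist and Y-linked UMIs, 22.1%, was 14.3% from 5000 to 15000 UMIs, 1.81% thinned to 3000 UMIs, 8.54% thinned to 8000 (chosen after seeing the data) and 4.80% with at least 2 UMIs of each, and it moved with depth in all 3 classes. Genes past 1.25-fold over the weighted sum, 22 in the reported setting, numbered 33 with AT1 and AT2 cells free of Ptprc and 4 from 10000 to 20000 UMIs, and those under it, 70, numbered 343 with stricter thresholds and 102 from 10000 to 20000 UMIs. The cause of the other changes was not tested. No paired analysis was possible because each time point has 1 library. No result has a replicate check, and free RNA was not subtracted. AT1 genes reached the level of the rule in some cells with Ptprc and without Epcam UMIs, and the highest Sftpc share in such cells lay above its threshold.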
